A study of Mus musculus with 45 samples.

Results

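The genes described here are 8: the alpha-arrestins Txnip, Arrdc1, Arrdc2, Arrdc3 and Arrdc4, and Mlxip, Mlxipl and Mlx, which encode the glucose-sensing factors that drive Txnip and Arrdc4. They were picked by name from the gene column of the deposited tables, and all 8 were found among 35272 genes. Txnip and Arrdc4 were proposed because they were lower under 5 µM bisphenol AF (BPAF) at 3 h in these same libraries. The values of that contrast chose the genes, so they are given as a description with no test.

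The libraries are poly-A RNA-seq of CD1 mouse forelimb buds taken at gestation day 13 and grown in bottles. BPAF, a fluorinated bisphenol by the titles and the abbreviation, is spelled out as bisphenol A in the treatment text. It was given at 5 µM or at 1 µM, and the control bottles received its solvent DMSO. Culture lasted 3, 24 or 48 h, and each dose and time is a group of 5 libraries, 45 in all. Every bottle, control bottles included, was gassed with an oxygen-rich mixture, and limbs of male and female embryos are described as cultured together. A bottle held pooled limbs, and the labels do not say whether replicates came from separate culture days, and the p-values rest on the spread between these libraries alone, which may be partly technical. In such bulk tissue, fewer cells of a type and less RNA per cell cannot be told apart. Library totals lay between 14901842 and 25154115 reads. Tbx5, the forelimb selector, averaged 215 to 293 CPM (reads scaled to a common library size) over the 9 groups, and the hindlimb factors Tbx4 and Pitx1 averaged 19.9 to 24.6 and 2.81 to 5.59 CPM. Log2 CPM of Y-linked genes was -2.67 in 3 h control replicate 3. It was -0.93 in 1 µM 3 h replicate 1 and -2.25 in 1 µM 48 h replicate 2. All other libraries lay between 5.74 and 8.33, so the mix of sexes differed between libraries. For 1 µM 3 h replicate 5, a treatment label gives a different bisphenol and dose than the title, which was followed. No member was called in that group's comparison with control, whether this library was in or out.

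Alpha-arrestins are adaptor proteins that link membrane cargo to NEDD4-family ubiquitin ligases. TXNIP also binds reduced thioredoxin, and it lowers glucose uptake by promoting the internalisation of glucose transporters. MondoA (Mlxip) and ChREBP (Mlxipl) pair with Mlx and activate genes through carbohydrate response elements when phosphorylated sugars build up, so Txnip and Arrdc4 are widely used as readouts of sugar supply.

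Txnip lies at chr3:96557957-96561883 on the plus strand and Arrdc4 at chr7:68736995-68749241 on the minus strand (mm10, both protein-coding). The 250 bases before RefSeq's start of each are shown because they are the pair of members that were low together at every time. The sequences are RefSeq's for GRCm38.p6, 5′ to 3′ on the gene's strand, at chr3:96557707-96557956 (plus) and chr7:68749239-68749488 (minus). RefSeq's start of Arrdc4 lies a few bases inside the gene span of the deposited tables. Capitals mark each CCAAT, on either strand, and each CACGTG.
Txnip: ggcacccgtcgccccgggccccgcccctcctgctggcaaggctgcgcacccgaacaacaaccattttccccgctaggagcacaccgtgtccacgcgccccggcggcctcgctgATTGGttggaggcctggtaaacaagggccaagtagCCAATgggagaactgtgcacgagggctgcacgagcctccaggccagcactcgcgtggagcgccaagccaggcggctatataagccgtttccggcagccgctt
Arrdc4: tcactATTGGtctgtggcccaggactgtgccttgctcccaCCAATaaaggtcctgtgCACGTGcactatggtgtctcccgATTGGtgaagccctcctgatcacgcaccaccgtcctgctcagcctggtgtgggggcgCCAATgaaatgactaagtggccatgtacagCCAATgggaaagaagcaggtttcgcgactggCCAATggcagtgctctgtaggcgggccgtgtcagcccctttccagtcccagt

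The Arrdc4 window held 6 CCAAT boxes, the letters that the factor NF-Y binds, whereas 0.0578% of 32851 RefSeq windows of the same length held that many. It also held 1 CACGTG E-box, which was present in 6.02% of windows. The Txnip window held 2 CCAAT boxes, a number reached by 10.1% of windows, and no CACGTG. Among the other members, Arrdc2 had 3 CCAAT boxes, Mlxip and Mlx 2, and Arrdc1 none. CACGTG occurred once in Mlx and once in 1 of the 2 windows of Mlxipl. No member's window held TATAAA (12.4% of all windows) or a match to the carbohydrate response element consensus (0.0274% of windows), and the search covered both strands. Only exact matches to these patterns were sought, so variant forms of an element would be missed. The Txnip window holds the letters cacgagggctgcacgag and tatataag, which the patterns pass over, and variants were not searched for. These letter matches describe the windows and no more.

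All 8 members were measured in every library and passed the low-count filter in every comparison. Txnip had between 2015 and 5125 reads per library and Arrdc3 between 1892 and 5173, whereas Mlxipl had between 17 and 109. Levels of different genes are compared as CPM per kilobase of the deposited gene length. In controls Txnip was the highest of the 8 at each time, with 57.1, 57.0 and 66.8 CPM per kilobase at 3, 24 and 48 h. Arrdc3 followed with 33.4, 22.0 and 21.4, then Mlx with 15.1, 14.9 and 14.6 CPM per kilobase. Arrdc4 had 13.4, 11.2 and 10.2, and Mlxip had 7.80, 9.21 and 8.59 CPM per kilobase. Arrdc1 and Arrdc2 lay between 3.39 and 5.32, and Mlxipl lay between 0.447 and 0.634. MondoA's gene was therefore the more abundant of the pair of sugar-sensing partners in control limbs, per kilobase of transcript. The plot of level per kilobase shows that the means of Txnip and Arrdc3 changed places under 5 µM BPAF at 3 h, where Arrdc3 averaged 41.9 and Txnip 40.1 CPM per kilobase. Their ranges overlapped there, at 39.0 to 46.5 for Arrdc3 and 36.4 to 44.4 for Txnip. That group belongs to the contrast that chose the genes.

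**Figure D1:**
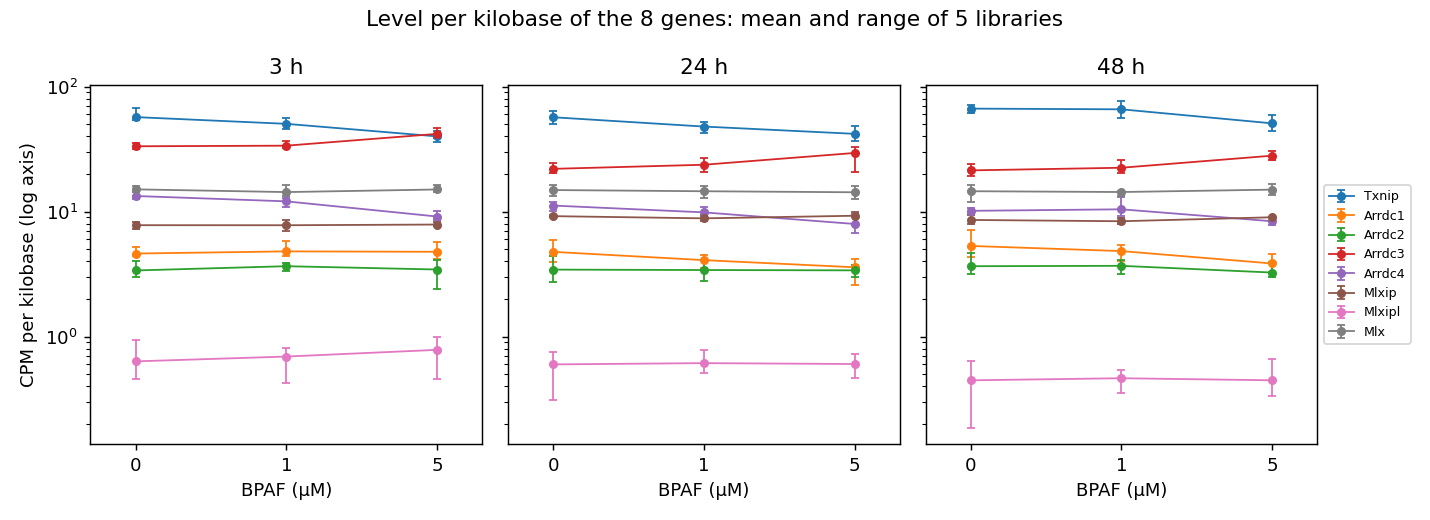
Level of the 8 genes in CPM per kilobase (log axis) against BPAF dose (0 is the DMSO control) at 3, 24 and 48 h. Points are means of 5 libraries and bars their range, and the 3 h panel shows Arrdc3 at 41.9 and Txnip at 40.1 CPM per kilobase at 5 µM.

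The comparison of 5 µM BPAF with control at 3 h is the one that chose the genes. Txnip had 114, 123, 139, 122 and 128 CPM in the 5 libraries of 5 µM BPAF, against 169, 171, 175, 168 and 209 CPM in control libraries. Arrdc4 had 36.8, 34.5, 40.9, 37.2 and 35.4 CPM under 5 µM BPAF, against 51.3, 50.9, 54.5, 57.9 and 55.2 CPM in controls. Arrdc3, whose protein joins adrenergic receptors and other cargo to ubiquitin ligases, had 244, 265, 249, 265 and 292 CPM under 5 µM BPAF, against 211, 223, 215, 197 and 199 CPM in controls. For each of these 3 genes the 2 groups did not overlap, Txnip and Arrdc4 being lower and Arrdc3 higher under BPAF. The log2 fold changes were -0.51 ± 0.06 for Txnip, -0.54 ± 0.06 for Arrdc4 and 0.33 ± 0.05 for Arrdc3 (estimate ± SE, edgeR, here and below). In this comparison 0.18% of 16651 genes were called, meaning a Benjamini-Hochberg adjusted p under 0.05 in edgeR's quasi-likelihood test, and 1.74% had groups that did not overlap. The other 5 members had log2 fold changes between 0.00 and 0.31, the highest being Mlxipl at 0.31 ± 0.23. Summed macrophage markers ranged from 69.7 to 84.8 CPM under 5 µM BPAF and from 80.7 to 98.2 CPM in controls, and summed skeletal muscle markers from 1488 to 1606 CPM under 5 µM BPAF and from 1245 to 1620 CPM in controls. None of 10 macrophage or 14 muscle markers was called at this time, none was at 0, and their part in the values above was not tested.

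**Figure D2:**
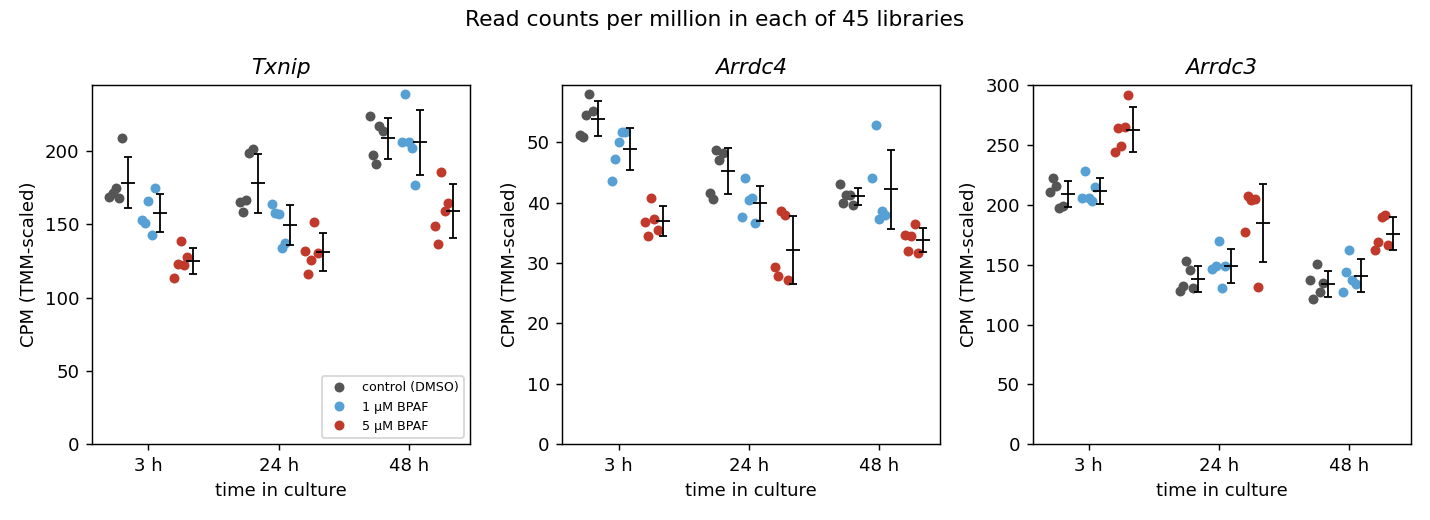
CPM of Txnip, Arrdc4 and Arrdc3 in each library, by time in culture and by dose (DMSO, 1 µM and 5 µM BPAF). Each point is 1 library and the bar beside each group is its mean ± SD (n = 5). At 48 h the 5 µM libraries of Txnip lie between 137 and 186 CPM and the control libraries between 192 and 224 CPM.

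At 24 h, Txnip and Arrdc4 fell in limbs exposed to 5 µM BPAF, a comparison that shares no library with the 3 h contrast, though its results were also known when the genes were proposed. Txnip had 132, 116, 126, 152 and 131 CPM under 5 µM BPAF, against 165, 158, 167, 199 and 201 CPM in controls. Arrdc4 had 29.3, 27.9, 38.7, 38.0 and 27.2 CPM under 5 µM BPAF, against 41.6, 40.6, 48.6, 47.1 and 48.2 CPM in controls. For both genes every treated library was below every control library, though Arrdc4 was near the controls in treated replicates 3 and 4. Txnip changed by -0.43 ± 0.09 (log2, adjusted p = 0.0207) and Arrdc4 by -0.48 ± 0.11 (adjusted p = 0.0389). They were 2 of 8 members called, while 1.57% of 16433 genes were called, 0.475% higher and 1.1% lower, and 3.54% had groups that did not overlap.

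Arrdc3 had 177, 208, 204, 205 and 131 CPM under 5 µM BPAF at 24 h, against 128, 133, 153, 146 and 131 CPM in controls. Treated replicate 5 lay within the control range and the other 4 above it. The log2 fold change was 0.43 ± 0.11 with an adjusted p of 0.0632, so Arrdc3 was not called. Without treated replicate 5 the change was 0.54 with an adjusted p of 0.000416. That library had 0.253% of its reads on haemoglobin genes, against 0.101% to 0.157% in the other treated libraries, and control replicate 5 had 0.251%, against 0.119% to 0.149% in the other controls. Same-numbered libraries deviated together in this comparison, and a fit that blocked on that number gave Arrdc3 a change of 0.41 (adjusted p = 0.00332), while 655 genes were called in place of 258. In that blocked fit Txnip changed by -0.43 (adjusted p = 0.000199) and Arrdc4 by -0.49 (adjusted p = 0.00188). In the authors' deposited table Arrdc3 has a log2 fold change of 0.44 with an adjusted p of 0.00756.

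Arrdc1, whose protein recruits the budding machinery that releases small vesicles from the cell surface, had 9.80, 6.55, 9.95, 8.25 and 10.5 CPM under 5 µM BPAF at 24 h, against 11.5, 11.1, 12.4, 9.88 and 15 CPM in controls. The groups overlapped, and the log2 difference of -0.40 ± 0.15 was not called (adjusted p = 0.254). Arrdc2, Mlxip, Mlxipl and Mlx had log2 fold changes between -0.05 and 0.02 at 24 h and none was called. The median log2 fold change was -0.03 over the 8 members and 0.00 over all genes tested.

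The calls at 24 h did not hold in every fit that left out 1 library, and those fits did not block on the replicate number. The Txnip call was lost without treated replicate 1 (adjusted p = 0.066), 2 (0.0665) or 3 (0.06), or without control replicate 4 (0.0727). The Arrdc4 call was lost without treated replicate 1 (adjusted p = 0.123) or 2 (0.103), and without control replicate 1 (0.0676), 2 (0.0612), 3 (0.105), 4 (0.102) or 5 (0.0687). The change stayed negative in each case, between -0.49 and -0.38 for Txnip and between -0.55 and -0.42 for Arrdc4. At 24 h, 8 of 13 muscle markers tested and 3 of 10 macrophage markers were called lower. Summed muscle markers were 2372 to 2916 CPM under 5 µM BPAF and 3529 to 4205 CPM in controls, and summed macrophage markers 100.2 to 157 CPM under 5 µM BPAF and 162 to 206 CPM in controls. No marker of either list was at 0, and the part of these cell types in the changes of Txnip and Arrdc4 was not tested.

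At 48 h, 3 of the 8 members were called under 5 µM BPAF: Txnip and Arrdc4 fell and Arrdc3 rose. Txnip had 149, 137, 186, 159 and 165 CPM under 5 µM BPAF, against 224, 197, 192, 217 and 214 CPM in controls. Arrdc4 had 34.7, 32.0, 34.4, 36.5 and 31.7 CPM under 5 µM BPAF, against 43.1, 39.9, 41.3, 41.3 and 39.6 CPM in controls. Arrdc3 had 162, 169, 189, 192 and 166 CPM under 5 µM BPAF, against 137, 121, 150.3, 127 and 134 CPM in controls. All 3 genes had groups that did not overlap, with Txnip's treated replicate 3 nearest to its controls. The log2 fold changes were -0.42 ± 0.07 for Txnip (adjusted p = 0.00128), -0.30 ± 0.07 for Arrdc4 (adjusted p = 0.0104) and 0.37 ± 0.07 for Arrdc3 (adjusted p = 0.00171). In this comparison 7.16% of 16345 genes were called, 2.74% higher and 4.42% lower, and 7.54% had groups that did not overlap. All 3 calls held without any 1 library, with adjusted p-values of at most 0.00686 for Txnip, 0.0451 for Arrdc4 and 0.00737 for Arrdc3.

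Arrdc1 had 11.4, 10.6, 8.36, 9.75 and 8.24 CPM under 5 µM BPAF at 48 h, against 13.1, 18.0, 10.9, 11.8 and 13.0 CPM in controls. Its log2 difference of -0.49 ± 0.14 lay at the threshold and was not called (adjusted p = 0.05). It was called without treated replicate 1 (-0.55, adjusted p = 0.0417) and without control replicate 3 (-0.55, adjusted p = 0.0322). Arrdc2, which encodes another alpha-arrestin, differed by -0.19 ± 0.13 (adjusted p = 0.49). The 3 sugar-sensing factors were not called, with 0.05 ± 0.06 for Mlxip, -0.02 ± 0.30 for Mlxipl and 0.02 ± 0.09 for Mlx on the log2 scale. The 95% interval of the log2 change was -0.08 to 0.18 for Mlxip and -0.18 to 0.21 for Mlx, but -0.65 to 0.60 for Mlxipl, the member with the fewest reads.

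Muscle and macrophage markers were also lower at 48 h. Called lower were 13 of 14 muscle markers, whose sum was 2324 to 2834 CPM under 5 µM BPAF and 4414 to 6969 CPM in controls. Called lower too were 7 of 10 macrophage markers, with sums of 165 to 201 CPM under 5 µM BPAF and 253 to 336 CPM in controls, and 2 of 7 endothelial markers, with sums of 168 to 220 CPM under 5 µM BPAF and 233 to 262 CPM in controls. Summed limb mesenchyme markers were higher, at 1138 to 1232 CPM under 5 µM BPAF and 1041 to 1128 CPM in controls. Chondrocyte sums overlapped, at 18940 to 22827 CPM under 5 µM BPAF and 15813 to 19921 CPM in controls. The osteoblast, erythroid and keratinocyte sums overlapped too. No marker of these lists was at 0, and the part of these cell types in the changes of the members was not tested.

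**Figure D3:**
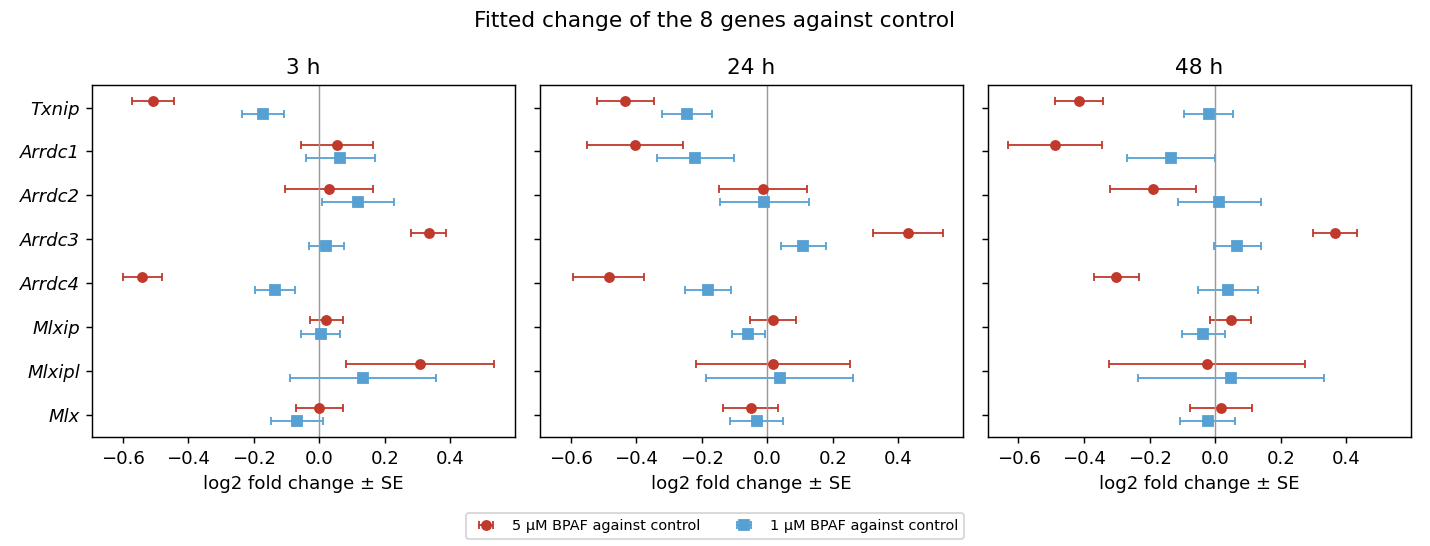
Log2 fold change ± SE of each gene against control at 3, 24 and 48 h, for 5 µM (circles) and 1 µM BPAF (squares), 5 libraries a group. Both doses at a time share the control libraries. At 5 µM Txnip lies between -0.51 and -0.42 at the 3 times and Arrdc3 between 0.33 and 0.43, while Mlxip and Mlx lie near 0.

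The change of each member under 5 µM BPAF was then compared between 48 and 24 h in 1 fit, which used no 3 h library. No member differed beyond the threshold, with adjusted p-values of 1 for all 8, in a comparison where 0.0693% of 17315 genes were called. At 48 h minus 24 h, the difference of the log2 changes was 0.03 for Txnip (95% interval -0.22 to 0.28), 0.19 for Arrdc4 (-0.07 to 0.46) and -0.05 for Arrdc3 (-0.33 to 0.23). The intervals leave room for a change at 48 h that is smaller or larger than at 24 h. At 24 h minus 3 h, given as a description since it uses the libraries that chose the genes (0.336% of genes called), the differences were 0.09 ± 0.11 for Txnip, 0.07 ± 0.13 for Arrdc4 and 0.11 ± 0.13 for Arrdc3. Arrdc1 had the furthest from 0, at -0.44 ± 0.18.

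At 1 µM BPAF no member was called against control at any time. In edgeR 0 of 16631 genes were called at 3 h (0%), 1 of 16439 at 24 h (0.00608%) and 0 of 16479 at 48 h (0%). At an unadjusted p under 0.05 the counts of genes were 424, 439 and 621. Txnip had 153, 151, 166, 143 and 175 CPM at 1 µM at 3 h, and 164, 158, 157, 134 and 137 CPM at 24 h, both overlapping the control libraries given above. Its log2 fold change against control was -0.17 ± 0.07 at 3 h, -0.25 ± 0.08 at 24 h (unadjusted p = 0.00507, adjusted p = 1) and -0.02 ± 0.07 at 48 h. For Arrdc4 the changes were -0.14 ± 0.06, -0.18 ± 0.07 and 0.04 ± 0.09 at 3, 24 and 48 h, and for Arrdc3 0.02 ± 0.05, 0.11 ± 0.07 and 0.07 ± 0.07. The 3 h values share their control libraries with the comparison that chose the genes. At 48 h the 95% interval of the 1 µM change was -0.18 to 0.14 for Txnip and -0.15 to 0.23 for Arrdc4 (log2).

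Between the doses, 3 members were called at 48 h, where 5.96% of 16349 genes were called. Txnip averaged 159 ± 18.3 CPM under 5 µM and 206 ± 22.1 CPM under 1 µM BPAF (SD, n = 5 each), a log2 fold change of -0.39 ± 0.08 (edgeR, adjusted p = 0.00651). Arrdc3 averaged 176 ± 13.8 CPM under 5 µM and 141 ± 13.6 CPM under 1 µM, a log2 fold change of 0.30 ± 0.07 (edgeR, adjusted p = 0.0122). Arrdc4 averaged 33.9 ± 2.01 CPM under 5 µM and 42.2 ± 6.54 CPM under 1 µM, a log2 fold change of -0.34 ± 0.09 (edgeR, adjusted p = 0.0382). The Txnip groups overlapped, as did those of Arrdc3. The Arrdc4 groups did not overlap (6.72% of genes), yet its call was lost without 1 µM replicate 1 (adjusted p = 0.0801) or 2 (0.094), and without 5 µM replicate 1 (0.0705), 2 (0.0819), 3 (0.0692) or 5 (0.106). At 24 h no member differed between the doses (1.19% of 16496 genes called), with -0.19 ± 0.08 for Txnip, -0.31 ± 0.11 for Arrdc4 and 0.31 ± 0.11 for Arrdc3. Without 5 µM 24 h replicate 5 the Arrdc3 difference was 0.42 with an adjusted p of 0.00218. At 3 h the 5 µM libraries are those that chose the genes, and the log2 values, where 0.036% of genes were called, were -0.34 ± 0.06, -0.40 ± 0.06 and 0.31 ± 0.05 for Txnip, Arrdc4 and Arrdc3. These comparisons share the 5 µM libraries with those against control.

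The 3 h controls served in the comparison that chose the genes, so levels of 24 h against 3 h controls are given with no test. Arrdc3 averaged 138 ± 11.1 CPM in 24 h controls and 209 ± 10.8 CPM in 3 h controls (SD, n = 5 each), a log2 difference of -0.61 ± 0.06 (edgeR estimate ± SE). Arrdc4 averaged 45.2 ± 3.84 CPM in 24 h controls and 53.9 ± 2.93 CPM in 3 h controls, a difference of -0.26 ± 0.07. Mlxip averaged 76.7 ± 1.52 CPM in 24 h controls and 64.9 ± 2.80 CPM in 3 h controls, a difference of 0.23 ± 0.05. Txnip averaged 178 ± 20.3 CPM in 24 h controls and 178 ± 17.4 CPM in 3 h controls. In this comparison 37.8% of 16481 genes were called. Between 48 and 24 h no member was called in controls (16.3% of 16445 genes called). Txnip averaged 209 ± 13.8 CPM in 48 h controls and 178 ± 20.3 CPM in 24 h controls, a log2 difference of 0.23 ± 0.08 (edgeR, adjusted p = 0.0585), which was called without 24 h replicate 4 (adjusted p = 0.0299) or 5 (0.0209) or without 48 h replicate 3 (0.0427).

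The 5 µM libraries at 3 h also chose the genes, and 24 h against 3 h under 5 µM BPAF is likewise a description. The log2 differences were -0.51 ± 0.10 for Arrdc3, -0.42 ± 0.14 for Arrdc1, -0.21 ± 0.10 for Arrdc4 and 0.23 ± 0.07 for Mlxip, where 34.7% of genes were called. Between 24 and 48 h no member was called under 5 µM BPAF (13.9% of genes called), and Txnip had a log2 difference of 0.25 ± 0.09 (adjusted p = 0.0647). It was called without 24 h replicate 4 (adjusted p = 0.0181) or 48 h replicate 2 (0.0265), and Arrdc3 was called lower without 24 h replicate 5 (-0.20, adjusted p = 0.0484). Under 1 µM BPAF, Arrdc3 fell by 0.52 ± 0.06 (adjusted p = 1.39e-06) and Arrdc4 by 0.30 ± 0.07 (adjusted p = 0.00124) between 3 and 24 h, where 39.5% of genes were called. Mlxip rose by 0.17 ± 0.06 (adjusted p = 0.0231), a call lost without 24 h replicate 3 (adjusted p = 0.0637) or without 3 h replicate 4 (0.0551) or 5 (0.0661). That 3 h replicate 5 is the library whose treatment label differs from its title. Txnip then rose to 206 ± 22.1 CPM in 48 h libraries of 1 µM BPAF, against 149.9 ± 13.6 CPM in its 24 h libraries, a log2 fold change of 0.46 ± 0.07 (edgeR, adjusted p = 0.000213), where 19.6% of genes were called.

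Ordered by group mean, Txnip was highest in 48 h controls (209 CPM) and lowest under 5 µM BPAF at 3 h (125 CPM), and each of its 9 group ranges overlapped that of its neighbour in the order. The same held for Arrdc4, with means between 53.9 CPM in 3 h controls and 32.2 CPM under 5 µM BPAF at 24 h. For Arrdc3 the highest group, 5 µM BPAF at 3 h (263 CPM), stood clear of the next, 1 µM BPAF at 3 h (212 CPM), and the 7 other neighbouring pairs overlapped. The lowest group mean of Arrdc3 was that of the 48 h controls, 134 CPM.

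Txnip and Arrdc4 were not in fixed proportion. The log2 ratio of Arrdc4 to Txnip CPM was -1.76 ± 0.09 under 5 µM BPAF and -1.72 ± 0.14 in controls at 3 h (SD, n = 5 each). At 24 h it was -2.03 ± 0.21 under 5 µM BPAF and -1.97 ± 0.12 in controls, and at 48 h -2.22 ± 0.16 under 5 µM BPAF and -2.34 ± 0.09 in controls. Within a time the groups overlapped, while in both groups the mean ratio was lower at each later time. Over the 45 libraries Pearson's r of log2 CPM was 0.50 between Txnip and Arrdc4, and 0.46 for deviations from the group means. Between Txnip and Arrdc3 r was -0.55 for levels and 0.13 for deviations. These values describe libraries that share their groups and scaling, and a correlation of this size says little about a single library.

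**Figure D4:**
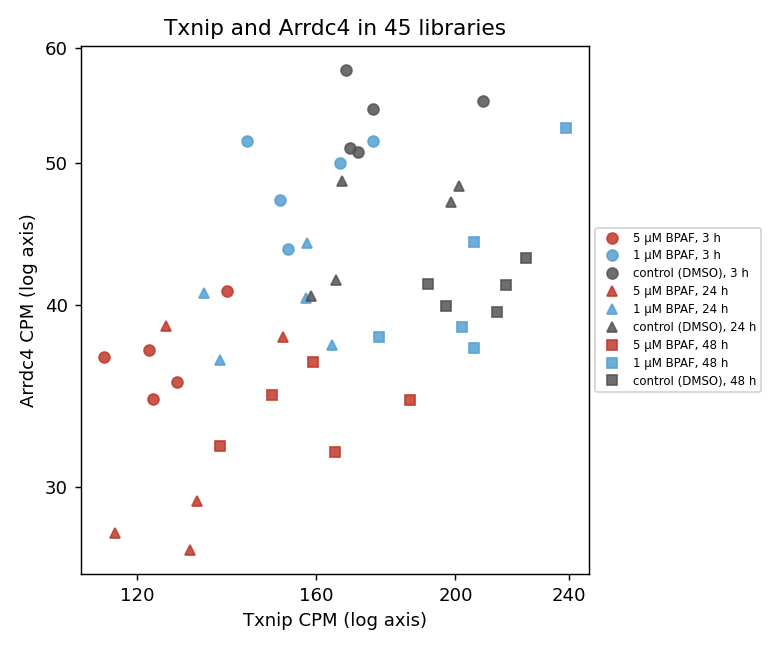
CPM of Txnip (x) and Arrdc4 (y), both on log axes, in the 45 libraries. Colour gives the dose and the symbol the time. The 5 µM libraries at 3 h lie between 114 and 139 CPM of Txnip and between 34.5 and 40.9 CPM of Arrdc4.

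Among 12679 genes with a mean of at least 2 CPM, the 6 whose levels were most like Txnip over the 45 libraries were Kcnj8 (r = 0.79), Ldha (0.76), Klf11 (0.75), Nxph4 (0.74), Tnn (0.74) and Aldoa (0.73). Kcnj8 encodes a potassium channel subunit, Tnn tenascin-W, and Ldha and Aldoa glycolytic enzymes. For deviations from the group means they were Apln (0.67), Pgk1 (0.645), Ndrg1 (0.63), P4ha1 (0.63), Ero1l (0.62) and Slc2a3 (0.62), the last a glucose transporter gene. The 6 most like Arrdc4 were Pik3cd (0.75), F13a1 (0.74), Ankrd37 (0.69), Kcne3 (0.69), Cx3cr1 (0.69) and Pgk1 (0.68) by level, of which Cx3cr1 is also among the macrophage markers. By deviation they were Bnip3l (0.67), Hk2 (0.67), Ndrg1 (0.64), Seh1l (0.61), Sdc4 (0.61) and Pfkfb3 (0.60). Without the 3 h libraries, which include those that chose the genes, the 6 most like Txnip by level over 30 libraries were F13a1 (0.88), Ldha (0.86), Ndufa4l2 (0.86), Pecam1 (0.86), Gap43 (0.84) and P2ry10b (0.84), so that Ldha alone stayed. Pecam1 encodes an endothelial surface protein, and F13a1 a coagulation factor subunit made by macrophages. For Arrdc4 they were Flt1 (0.82), Cx3cr1 (0.79), F13a1 (0.76), Acsl3 (0.75), Kcnj2 (0.75) and Klf11 (0.745), where Flt1 is a receptor of endothelial cells. At 48 h under 5 µM BPAF, Aldoa changed by -0.60 ± 0.09 and Ldha by -0.37 ± 0.08 (log2). All other genes listed by level over the 45 libraries were lower too. Those libraries include this comparison, so these falls are a description with no test. Of the genes listed by deviation, Ndrg1 was called lower (-0.65 ± 0.12, edgeR, adjusted p = 0.00227). Pgk1, also listed by level for Arrdc4, changed by -0.55 ± 0.12. The others listed by deviation were not called, among them Slc2a3 (0.07 ± 0.11, adjusted p = 0.821) and Hk2 (-0.32 ± 0.11, adjusted p = 0.109).

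The partners and relatives of the members are given list by list, to be read beside the 1.57% of all genes called at 24 h and 7.16% at 48 h. In the thioredoxin system, 1 of 23 genes rose and 1 fell at 48 h under 5 µM BPAF. Srxn1, which repairs oxidised peroxiredoxins, rose to 34.1 ± 4.14 CPM, against 22.7 ± 3.40 CPM in controls (log2 fold change 0.56 ± 0.11, adjusted p = 0.00308). Txn1, the thioredoxin that TXNIP binds, fell to 101 ± 8.01 CPM, against 119.5 ± 8.999 CPM in controls (-0.26 ± 0.07, adjusted p = 0.0219). The median log2 fold change of the 23 genes was 0.04, beside 0.00 over all genes. Neither gene was called at 24 h.

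Among 18 genes of glucose uptake and phosphorylation tested at 48 h, none rose and 1 fell, the hexokinase gene Hk1 (-0.31 ± 0.07, adjusted p = 0.014). At 24 h Slc2a10, a facilitative transporter gene, rose (0.37 ± 0.08, adjusted p = 0.0391) and none of the 20 tested fell. Of 16 other targets of ChREBP and MondoA, Me1, malic enzyme, rose at 48 h (0.46 ± 0.08, adjusted p = 0.00165) and Scd2, a fatty acid desaturase, fell (-0.23 ± 0.06, adjusted p = 0.0199). None of the 16 was called at 24 h, and the list's median was -0.07 at 24 h and -0.06 at 48 h. Among 15 genes of energy-sensing kinases, their subunits and their regulators, Sesn2, an inhibitor of mTORC1, rose at 24 h (0.43 ± 0.10, adjusted p = 0.0419) and 48 h (0.67 ± 0.10, adjusted p = 0.000213). Prkag3, a muscle form of an AMPK subunit, fell at 48 h (-1.30 ± 0.14, adjusted p = 1.36e-05), and 13 of the 14 muscle markers fell beside it. Of 22 genes responsive to glucocorticoids or FOXO factors, Foxo4 (-0.37 ± 0.06, adjusted p = 0.000277), Cdkn1c (-0.40 ± 0.07, adjusted p = 0.00194) and the muscle ubiquitin ligase gene Trim63 (-0.71 ± 0.14, adjusted p = 0.00337) fell at 48 h and none rose.

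None of 10 genes of the MYC, MAX and MLX network and none of the other arrestins and NEDD4-family ligases (17 tested at 24 h, 16 at 48 h) was called in either direction at 24 or 48 h under 5 µM BPAF. At 3 h no gene of the 7 lists was called under 5 µM BPAF, where 0.18% of all genes were. These counts stand beside 1.57% of all genes called at 24 h and 7.16% at 48 h.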

How the data were processed

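The 8 genes and the gene lists were chosen with earlier results of these data known. The build mm10 and the tools HTSeq 0.6.1, STAR 2.5, CASAVA 1.8 and DESeq2 are those listed in the submitters' processing notes. Strand and counting settings are not given in the sources used here, so reads of overlapping or antisense genes cannot be told apart. Each pairwise table covers 10 libraries and, per the file headers, holds unnormalized read counts, a normalized signal, FPKM, a log2 fold change, a p-value and an adjusted p-value. The counts were joined by gene identifier, and gene and library combinations absent from a table (11.7%) were read as 0. The deposited signal and FPKM values entered no test. The authors' fold changes are quoted once.

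Each comparison was fitted on its own libraries in edgeR 4.0.16 (R 4.3.3): TMM scaling, filterByExpr (minimum count 10, minimum total 15), quasi-likelihood F-test, Benjamini-Hochberg over all genes tested, called at adjusted p under 0.05. Fold changes are tested over comparator group. CPM was TMM-scaled over the 45 libraries. Likeness used log2 CPM with a prior count of 2. Promoter windows were taken from RefSeq, GRCm38.p6. The steps were tested on simulated data. No duplicate libraries were found (lowest chi-square per degree of freedom between libraries of a group, 4.63).

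Replicate numbers come from the sample titles. Numbers were taken to pair libraries where all 5 same-number correlations of deviations were over 0.1. That held for 5 µM against control at 24 h (r from 0.193 to 0.747 over 5000 genes), where the blocked values of Txnip, Arrdc4 and Arrdc3 are given. In 5 µM against 1 µM at 3 h (0.061 to 0.621) and 24 h against 3 h in 1 µM (0.018 to 0.281) they were all positive but not all over 0.1. For 1 µM 48 h replicates 1 and 2, titles and library codes carry each other's numbers. The main fits and those that left out a library had no replicate block, also where numbers were taken to pair libraries. Alternatives were DESeq2 1.42.0, limma-voom 3.58.1, another scaling, no low-count filter, the replicate block, a covariate of Y-linked reads and leaving out each library. The genes named are the 8 members, the 6 most alike by each measure, and up to 4 called genes per list with the smallest p.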

Additional observations from a re-analysis of the deposited data

Results flagged for a closer look

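In groups of 5 libraries, 72 combinations of gene and group were searched for a library far from the other 4, and 3 were found, beside the 3.6 that chance gives at 1 in 20. Txnip in 3 h control replicate 5 was 209.2 CPM, with the next highest control at 175 CPM. Mlxip in 5 µM BPAF 3 h replicate 2 was 68.96 CPM, with the next at 65.5 CPM. Mlx in 1 µM BPAF 48 h replicate 2 was 26.86 CPM, with the next lowest at 28.8 CPM. Leaving aside that 3 h control replicate 5, the Txnip values of all 5 treated libraries at 3 h lay below those of the other 4 controls. That comparison chose the genes, so this is a description and no support for the change.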

How the results depend on the processing

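For 5 µM BPAF against control at 24 h, leaving out each library gave log2 changes from -0.49 to -0.38 for Txnip, -0.55 to -0.42 for Arrdc4 and 0.38 to 0.54 for Arrdc3, and from 0 to 3 members called. Arrdc3 was called at 24 h with DESeq2 (0.44), without the low-count filter (0.43), with the replicate block (0.41), with the Y-linked covariate (0.57) and when replicate 5 of both 24 h groups, which had the most haemoglobin reads, was left out (0.51), a step chosen after seeing the data. Arrdc4 was not called with the covariate (-0.43, adjusted p = 0.0692) or without that pair (-0.40, adjusted p = 0.0549). At 48 h the Txnip, Arrdc4 and Arrdc3 calls held under every alternative run. Arrdc1 at 48 h was called with DESeq2 (-0.48, adjusted p = 0.0219), no filter (-0.49, 0.0305), the covariate (-0.52, 0.0127) and the block (-0.48, 0.0146). Arrdc4 between doses at 48 h was not called with the covariate (-0.25, adjusted p = 0.102), and Arrdc3 between doses at 24 h was called with it (0.37, 0.0347). In that Arrdc4 comparison, 1 µM replicate 2 stood apart in Y-linked reads (log2 CPM -2.25) and had the highest Arrdc4 (52.9 CPM). Without that library the Arrdc4 change was -0.24. Txnip between 48 and 24 h was called under 5 µM BPAF with DESeq2 (0.26, adjusted p = 0.0328) and the covariate (0.25, 0.0463), and in controls with DESeq2 (0.23, 0.0311) and the block (0.23, 0.023). The cause was not tested. No called change reversed.

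Genes called, 258 at 24 h, numbered 517 with DESeq2, 434 with the covariate, 655 with the block, 514 without the haemoglobin pair and 109 to 498 with a library left out. At 3 h, 30 genes became 115 with DESeq2, 79 unfiltered, 62 with the block and 15 to 45 with a library left out, and 6 between doses became 40, 25, 50 and 1 to 9, and 10 with limma-voom. Between doses at 24 h, 196 became 339 with DESeq2, 330 with the covariate, 319 with the block and 95 to 553. The 12 genes for the 48 h change minus the 24 h change became 50 with DESeq2, 7 with limma-voom, 27 unfiltered, 28 with the block, 4 without the haemoglobin pair and 2 to 17 with a library left out. For 24 h minus 3 h, 59 became 149 with DESeq2, 35 with the covariate and 30 to 109. For 1 µM BPAF, 1 at 24 h became 2 with DESeq2, 3 unfiltered and 2 with the block, and 0 at 48 h became 4 with DESeq2 and 1 unfiltered. Outside the 24 h comparison the block pairs only a shared number. Of the 6 genes most like each of Txnip and Arrdc4, 1 and 2 stayed among the 6 without the 3 h libraries. Depth limits Mlxipl most.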
